A study of Mus musculus with 16 samples.

Results

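Goblet cells line the crypts of the colorectum and fill the mucus layer with more than mucins. The 10 genes described here, chosen by name as the goblet cell secretory programme besides the mucins, were Atoh1, Spdef, Agr2, Galnt12, Fcgbp, Zg16, Tff3, Clca1, Spink4 and Retnlb. The choice was made with earlier results of these data known. All 10 were found among the 36118 Ensembl gene IDs of each tissue table, and all 10 passed the count filter of the colorectum. They were read from bulk RNA-seq of the colorectum, with the liver as a tissue that should lack the programme.

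Atoh1 is the transcription factor that commits a crypt progenitor to the secretory lineage, and Spdef is the ETS factor that acts after it in goblet cell maturation. Agr2 is an endoplasmic reticulum disulfide isomerase needed for mucin production, and Galnt12 adds the first sugar of mucin-type O-glycans. The secreted products are parts of the mucus gel or act in it: Fcgbp and Clca1 are abundant mucus proteins, Zg16 is a lectin that binds Gram-positive bacteria, Tff3 is a trefoil peptide of epithelial repair, Spink4 is a Kazal-type protein of goblet cells and Retnlb is a bactericidal protein known to respond to type 2 cytokines.

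All mice were 8-week-old male Apc Min/+ animals, which carry a truncating allele of the tumour suppressor Apc and form intestinal adenomas. They drank water with the sialic acid Neu5Gc for 14 days, at 0.0127 mg/ml in the low group and 0.2535 mg/ml in the high group, so every group carried the Min allele and every group received Neu5Gc. No group without Neu5Gc was analysed here. The colorectum gave 4 low and 6 high libraries, and the liver gave 3 low and 3 high libraries. The design text of the series counts 6 control and 4 treated mice, the reverse of the sample labels. Groups follow the sample labels, and each direction below would turn if the colorectum groups were exchanged. The labels do not say whether each library came from 1 mouse, so p-values measure the spread between these libraries.

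Library totals, in units of 1000000 estimated counts, were 46.1 to 73.9 in the colorectum and 47.5 to 86.1 in the liver. The colorectum label was checked against 10 epithelial genes, whose summed level was 7835 to 9785 counts per 1000000 counts (CPM) in low libraries and 9277 to 14652 CPM in high libraries, against 305 to 485 CPM in liver. Several libraries carried genes of other organs or stood apart. Low library 4 held 10696 CPM of 10 kidney tubule genes against 3.31 to 45.6 CPM in the other colorectum libraries, and low library 3 held 4635 CPM of 10 pancreatic acinar genes against 77.3 to 437 CPM. Posterior HOX genes, which mark position along the gut, summed to 29 to 116 CPM in low and 462 to 808 CPM in high libraries, without overlap. Of the 6 listed, 5 could be tested, and all 5 rose. Over all colorectum genes tested, edgeR called 7.29% higher and 8.21% lower at an adjusted p under 0.05. Taken singly, 7.58% of these genes lay wholly higher in the high group and 6.43% wholly lower. Small intestinal enterocyte genes summed to 356 to 611 CPM in low and 154 to 330 CPM in high libraries. These sums did not overlap either, with 4 of 10 genes called lower and 0 higher. Of 10 absorptive colonocyte genes, 6 were called higher and 3 lower, and their sums overlapped at 3401 to 8746 CPM in low and 2691 to 7185 CPM in high libraries. These differences move with the colorectum groups, and their part in the colorectum results was not tested.

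Promoter sequences of one regulator that fell and of one mucus protein that rose are shown because Spdef is itself an ETS factor and Atoh1 binds E-boxes. RefSeq promoters of mouse build GRCm38.p6, from 250 bases before to 50 bases after the start, were matched for 4 of the 10 genes: Atoh1, Spdef, Agr2 and Fcgbp. Capitals mark GGAT or its reverse complement ATCC, the core that Spdef prefers, and the E-box CAGCTG. The other E-box searched, CATCTG, has no match in these 4 windows on either strand.
Spdef (chr17:27728902-27729201, minus strand): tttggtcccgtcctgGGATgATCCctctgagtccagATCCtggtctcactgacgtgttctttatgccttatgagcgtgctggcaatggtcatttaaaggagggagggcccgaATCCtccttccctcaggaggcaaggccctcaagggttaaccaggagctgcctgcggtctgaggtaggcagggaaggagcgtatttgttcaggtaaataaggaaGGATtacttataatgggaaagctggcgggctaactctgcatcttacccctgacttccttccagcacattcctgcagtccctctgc
Fcgbp (chr7:28070986-28071285, plus strand): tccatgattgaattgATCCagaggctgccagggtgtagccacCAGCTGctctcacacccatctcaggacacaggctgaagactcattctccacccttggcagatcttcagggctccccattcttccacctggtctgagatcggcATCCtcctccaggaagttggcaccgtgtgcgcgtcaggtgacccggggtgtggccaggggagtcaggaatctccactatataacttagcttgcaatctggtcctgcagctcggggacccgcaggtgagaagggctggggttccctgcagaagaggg
The Spdef window held 5 GGAT matches on either strand, against a median of 2 over 32851 promoters of the same length, of which 79.6% held at least 1. The Fcgbp window held 2 GGAT matches and 1 CAGCTG, which 16.3% of those promoters hold, with its first base at -208 from the start. The Agr2 window held 2 GGAT matches and the Atoh1 window 0. A match describes these letters and is not a site.

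In the colorectum the regulator and processing genes and the secreted products did not move one way. Of the 10 genes, Spdef and Galnt12 fell, Fcgbp and Zg16 rose, and the other 6 did not pass the test. By edgeR's quasi-likelihood test with Benjamini-Hochberg adjustment, 15.5% of all 17961 genes tested were called, 7.29% higher and 8.21% lower, so 2 of 10 higher and 2 of 10 lower stand against those shares. The median log2 change was -0.0014 over the 10 genes and -0.015 over all genes tested. At an unadjusted p under 0.05, 7 of the 10 passed, against 32.2% of all genes tested. In bulk tissue, fewer goblet cells and less RNA per goblet cell cannot be told apart.

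**Figure D1:**
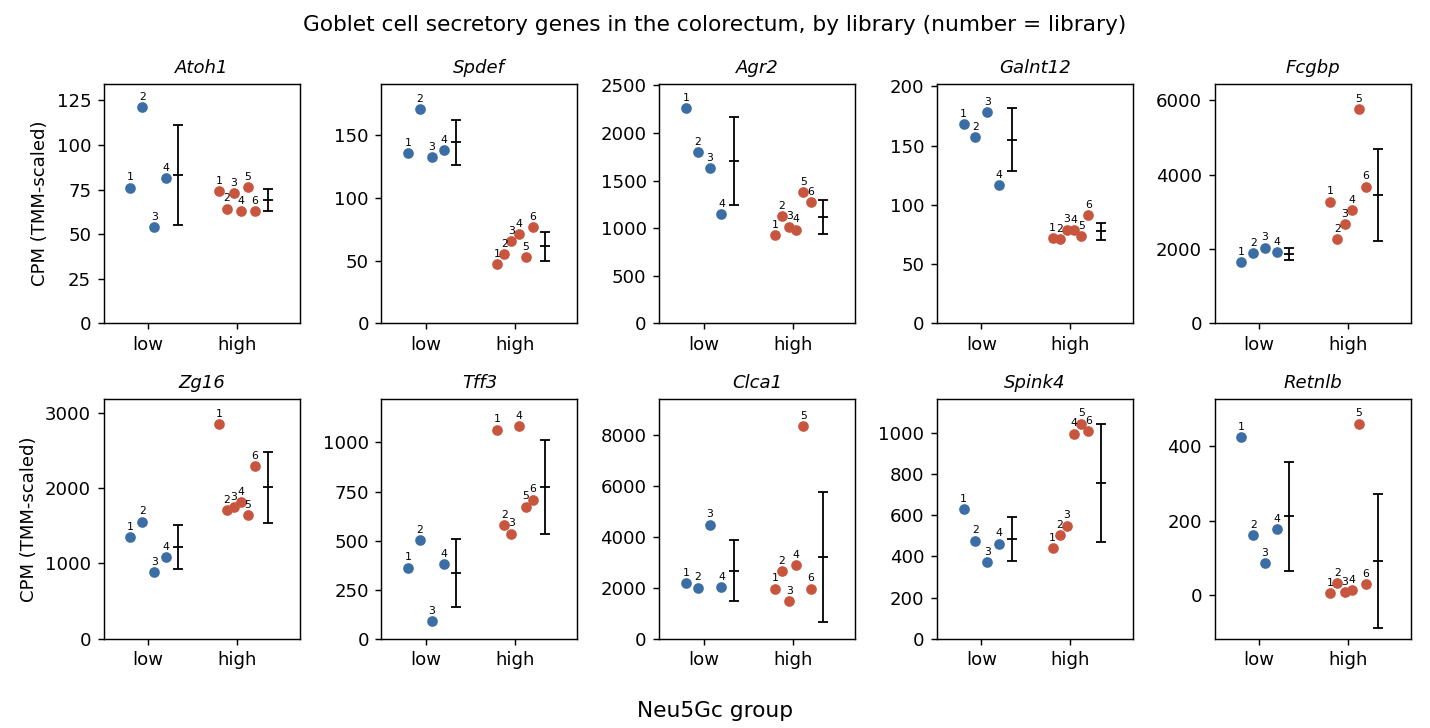
CPM scaled by TMM of the 10 genes in each colorectum library, low (blue, n = 4) and high (red, n = 6), each point numbered by library, with bars for the mean and SD. Spdef and Galnt12 lie lower in all 6 high libraries than in any low library, and high library 5 stands above the others in Fcgbp, Clca1 and Retnlb.

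Of the regulators, Spdef fell and Atoh1 did not pass the test. Spdef was 136, 171, 133 and 138 CPM in low libraries 1 to 4. In the high libraries it ran from 47.6 through a median of 60.3 to 77 CPM. Every high library lay below every low one. The mean went from 145 ± 17.5 (SD, n = 4) to 61.5 ± 11.5 CPM (SD, n = 6), a log2 change of -1.23 (SE 0.14, adjusted p = 4.3e-04 by edgeR). The fold was 2.35 lower. Leaving out any 1 library gave log2 changes of -1.31 to -1.14, and Spdef was called in all 10 such fits and in all 9 other settings tried. The genes whose profiles were nearest to Spdef, by root mean square difference of centred log2 CPM over the 10 colorectum libraries and 11891 genes searched, were Cdc42ep2 (0.169), Rap1gap (0.185) and Palmd (0.188).

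Atoh1 was 76, 121, 54 and 81.3 CPM in low libraries 1 to 4, and 62.9 to 76.4 CPM with a median of 68.7 in high libraries. The groups overlapped, and the low libraries spread more widely than the high ones. The log2 change was -0.27 (SE 0.18, adjusted p = 0.329 by edgeR). Atoh1 was called in 0 of the 10 fits that left out 1 library, with log2 changes of -0.43 to -0.026. Without low libraries 3 and 4 it was called lower, with a log2 change of -0.55 (adjusted p = 0.0479 by edgeR). That was the only call in the 9 other settings. Among its nearest profiles were Rarg, Reck and Trpt1, at differences of 0.143 to 0.154.

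Of the processing genes, Galnt12 fell and Agr2 lay at the edge of the threshold. Galnt12 was 168, 157, 178 and 117 CPM in low libraries 1 to 4, and 71.1 to 91.3 CPM with a median of 76.1 in high libraries. Every high library lay below every low one. The mean went from 155 ± 26.8 to 77.6 ± 7.51 CPM (SD, n = 4 and 6), a log2 change of -1.0 (SE 0.13, adjusted p = 6.2e-04 by edgeR). Galnt12 was called in all 10 fits that left out 1 library, with log2 changes of -1.12 to -0.92, and in all 9 other settings. Its nearest profiles were Cd24a (0.142), Sppl2a (0.144) and Mia3 (0.162).

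Agr2 was 2266, 1800, 1628 and 1149 CPM in low libraries 1 to 4, and 928 to 1383 CPM with a median of 1072 in high libraries. Low library 4 lay within the range of the high libraries, and the other 3 low libraries lay above it. The log2 change was -0.61 (SE 0.19, adjusted p = 0.0503 by edgeR). Without low library 4, the one with kidney genes, it was -0.77 (adjusted p = 0.0149 by edgeR), and without low libraries 3 and 4 it was -0.90 (adjusted p = 0.00888 by edgeR). Agr2 was called in 1 of the 10 fits that left out 1 library, with log2 changes of -0.77 to -0.45. The adjusted p in these fits ran up to 0.143. It was called in 3 of the 9 other settings.

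Of the secreted products, Fcgbp and Zg16 rose. Fcgbp was 1652, 1881, 2039 and 1927 CPM in low libraries 1 to 4. In the high libraries it ran from 2263 through a median of 3165 to 5765 CPM, the last in library 5. The groups did not overlap. The mean went from 1875 ± 163 to 3450 ± 1235 CPM (SD, n = 4 and 6), a log2 change of 0.88 (SE 0.24, adjusted p = 0.0329 by edgeR), or 1.84-fold. The call held in 5 of the 10 fits that left out 1 library, with adjusted p up to 0.0747, and without low libraries 3 and 4 the log2 change was 0.93 (adjusted p = 0.0906 by edgeR). Its nearest profiles were G6pdx and Cotl1 (both 0.209) and Gsdmc2 (0.217).

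Zg16 was 1347, 1555, 886 and 1079 CPM in low libraries 1 to 4, and 1640 to 2853 CPM with a median of 1782 in high libraries. On this scale, CPM adjusted by TMM factors, every high library lay above every low one. Scaled by total counts instead, the groups overlapped, with 1663 CPM in low library 2 and 1565 CPM in high library 5. The mean went from 1217 ± 294 to 2010 ± 475 CPM (SD, n = 4 and 6), a log2 change of 0.72 (SE 0.21, adjusted p = 0.041 by edgeR), or 1.65-fold. The call held in 2 of the 10 fits that left out 1 library, with adjusted p up to 0.0987. Low library 3, with the lowest Zg16, was the one with acinar genes, and without low libraries 3 and 4 the log2 change was 0.43 (adjusted p = 0.254 by edgeR). The nearest profiles were Ifngr1 (0.132), Elf3 (0.135) and Leng9 (0.153).

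Tff3 was 362, 501, 89 and 379 CPM in low libraries 1 to 4, and 535 to 1082 CPM with a median of 691 in high libraries. The groups did not overlap, and low library 3 lay far below the other 3. The log2 change was 1.22 (SE 0.41, adjusted p = 0.0679 by edgeR). Without low library 3 it was 0.90 (adjusted p = 0.0336 by edgeR). Tff3 was called in 1 of the 10 fits that left out 1 library, with adjusted p up to 0.127. It was called in 2 of the 9 other settings. These were the DESeq2 Wald test (adjusted p = 0.0124) and the edgeR fit of all 16 libraries (adjusted p = 0.0425). Without low libraries 3 and 4 the log2 change was 0.80 (adjusted p = 0.115 by edgeR).

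Groups whose CPM did not overlap were Tff3, Fcgbp and Zg16 higher and Spdef and Galnt12 lower, where 7.58% of all genes tested lay wholly higher and 6.43% wholly lower.

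Clca1, Spink4 and Retnlb did not pass the test. Clca1 was 2187, 2005, 4482 and 2035 CPM in low libraries 1 to 4, and 1484 to 8344 CPM with a median of 2308 in high libraries. The highest value of each group belonged to 1 library, low 3 and high 5. The log2 change was 0.27 (SE 0.48, adjusted p = 0.732 by edgeR), and it turned to -0.29 without high library 5. Spink4 was 631, 477, 371 and 462 CPM in low libraries 1 to 4, and 439 to 1046 CPM with a median of 773 in high libraries, a log2 change of 0.64 (SE 0.29, adjusted p = 0.144 by edgeR). Its groups overlapped.

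Retnlb was 423, 161, 86.8 and 177 CPM in low libraries 1 to 4. Of the high libraries, 5 held 4.8 to 32.2 CPM and library 5 held 460 CPM. The log2 change was -1.21 (SE 1.23, adjusted p = 0.527 by edgeR), and without high library 5 it was -3.54 (adjusted p = 0.0153 by edgeR). The gene with the nearest profile was Ang4 (1.16), an angiogenin of the crypt base, at 907 CPM in high library 5 against a median of 56.1 CPM in the high group. Reads of Retnlb and of Ang4 may be shared with close paralogues, and how the counting split them is not given in the sources used here. In the same library Reg4, a lectin of secretory cells, reached 1347 CPM, the highest of the 10 colorectum libraries. Reg4 was not high in that library alone. It was 169 to 1347 CPM with a median of 334 in high libraries, and 31.1 to 157 CPM in low ones. Its log2 change was 2.70 (adjusted p = 0.0346 by edgeR). Of 10 Paneth cell genes, which include Ang4, the other 9 summed to 48.2 CPM in high library 5, 471 CPM in high library 4 and 8.94 to 48 CPM in the other 4 high libraries. Their part in the Retnlb and Clca1 values was not tested.

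**Figure D2:**
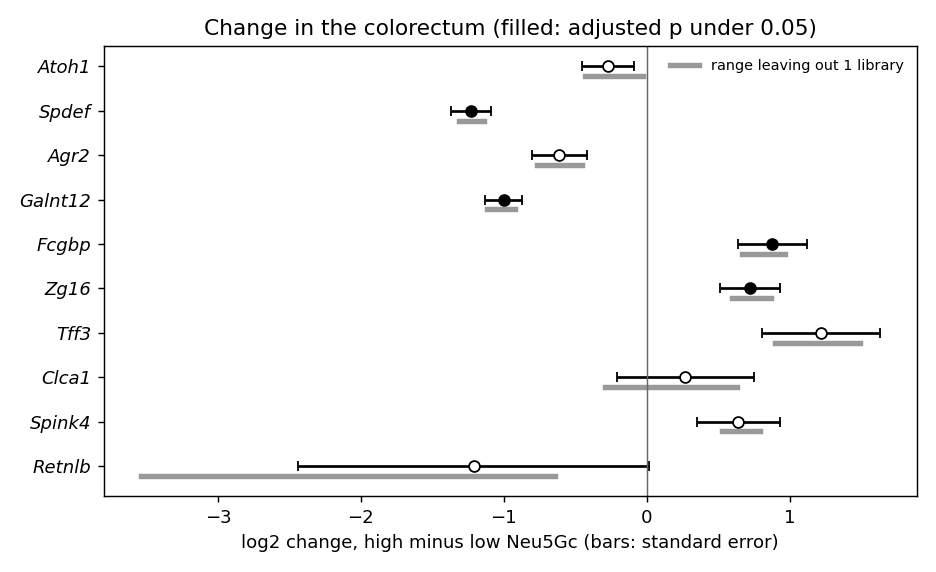
Log2 change of each gene in the colorectum, high minus low, with its standard error (points) and the range of the change over the 10 fits that leave out 1 library (grey). Spdef and Galnt12 sit at -1.23 and -1.0 with narrow ranges, while the ranges of Retnlb and Clca1 are wide and that of Clca1 crosses 0.

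Per length, the order of the genes also differed between the groups. In low libraries the highest median transcripts per 1000000 transcripts (TPM) belonged to Agr2 (3759), Spink4 (3690) and Zg16 (3333), and in high libraries to Spink4 (5504), Zg16 (4936) and Tff3 (2908), with Agr2 next at 2296. The ranges of neighbours in these orders overlapped, except those of Retnlb and Spdef in the low group. The summed TPM of the 10 genes was 15084 ± 3966 in low and 19034 ± 2994 in high libraries (SD, n = 4 and 6), with ranges of 11209 to 19336 and 15305 to 22571 that overlapped.

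The share of each gene in that sum was compared by an exact permutation test over the libraries, two-sided, with 210 splits and a smallest possible p of 0.00476, adjusted over the 10 genes. The share of Agr2 fell from 25.1 ± 4.43% to 12.3 ± 2.36% (exact permutation, adjusted p = 0.0159, n = 4 and 6). Spdef fell from 0.823 ± 0.131% to 0.259 ± 0.0655%, and Galnt12 from a range of 0.528 to 0.865% to 0.231 ± 0.0461%, each with an exact adjusted p = 0.0159. For these 3 genes every high library lay below every low one. The share of Tff3 was 10.4 ± 5.08% in low and 18.2 ± 4.78% in high libraries (exact permutation adjusted p = 0.0857). The shares of the other 6 genes had exact adjusted p from 0.0595 to 0.529. A share depends on all 10 genes and comes from the same libraries as the counts.

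**Figure D3:**
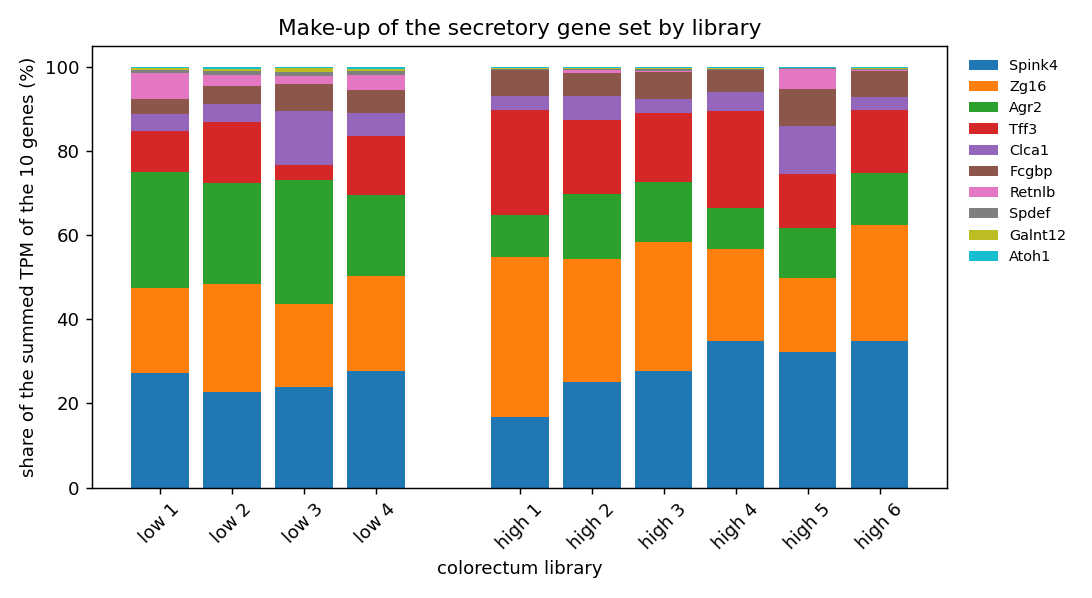
Share of each gene in the summed TPM of the 10 genes (%), one bar per colorectum library. Agr2 takes 19.4 to 29.5% of the sum in low libraries and 9.66 to 15.7% in high libraries.

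The machinery around these genes was read from lists of other goblet cell genes. The lists were chosen with earlier results of these data known. Setting their shares against those of all genes is therefore a description and not an independent test. The list of mucin O-glycosylation held 20 genes, of which 7 are relatives of Galnt12 that attach the first sugar. It also holds Fut8, an enzyme known for N-glycans. Of the 20, 13 fell and 0 rose, with a median log2 change of -0.64 against -0.015 over all genes. Of all genes tested, 8.21% were called lower and 7.29% higher. The 7 Galnt enzymes gave 6 of these falls and the other 13 genes gave 7. Gcnt3, a core-branching enzyme, went from 318 ± 47 to 52.9 ± 9.43 CPM (log2 change -2.59, adjusted p = 1.1e-05 by edgeR). Gcnt4 changed by -2.31, B4galnt2 by -1.91 and C1galt1c1, the chaperone of the core 1 enzyme, by -0.92 on the log2 scale, with edgeR adjusted p of 1.3e-04, 3.9e-04 and 7.6e-04. Leaving out 1 library gave 9 to 14 that fell, and without low libraries 3 and 4 it was 13, with 1 that rose.

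Of 18 regulators of the secretory lineage, 6 rose and 0 fell, with a median of 0.024. The share called was 33.3%, against 15.5% of all genes tested. Foxa2, a forkhead factor, went from 19.7 ± 4.5 to 53.9 ± 6.18 CPM (log2 change 1.45, adjusted p = 3.8e-04 by edgeR). Klf4, a factor of goblet cell differentiation, changed by 0.75, the Notch ligand Dll1 by 0.65 and the Notch target Hes1 by 0.58, with edgeR adjusted p of 0.00693, 0.0195 and 0.0152. Without low libraries 3 and 4, 2 rose and 1 fell. The regulators Foxa1, Foxa3 and Creb3l1 had log2 changes of -0.12, -0.074 and -0.0066 and were not called.

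**Figure D4:**
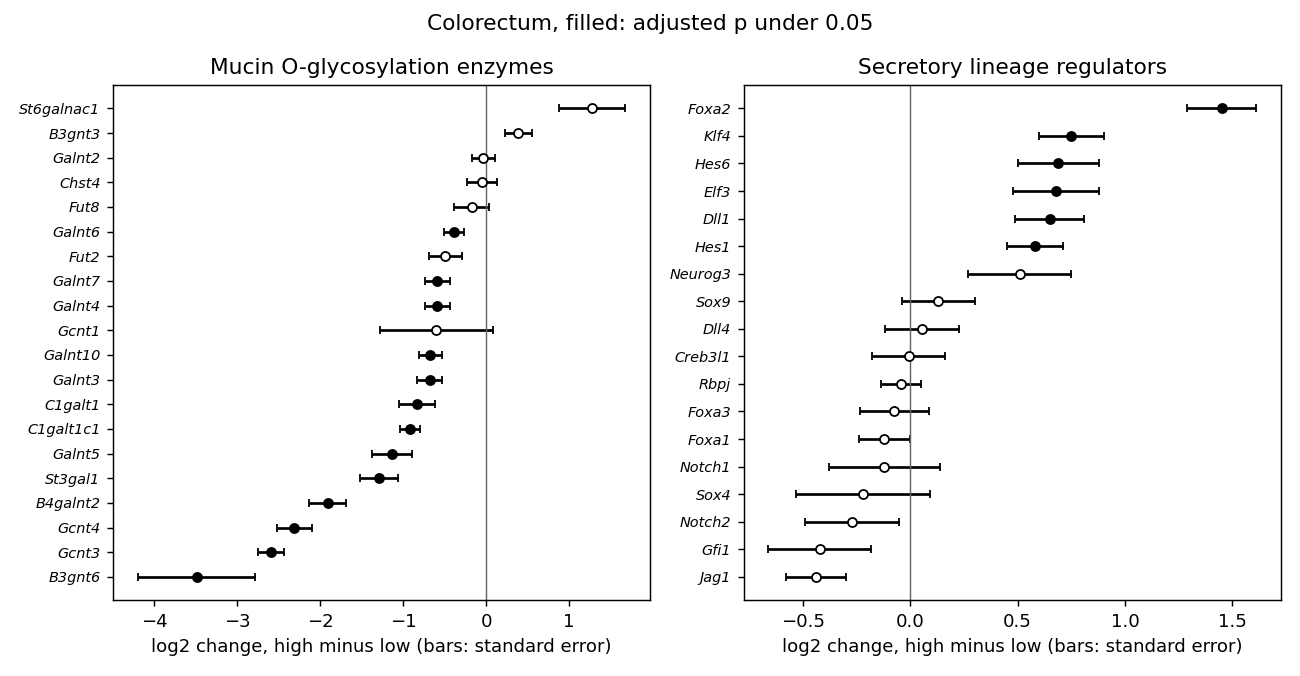
Log2 change, high minus low, with standard error, of the 20 mucin O-glycosylation enzymes and the 18 secretory lineage regulators in the colorectum, filled where the adjusted p was under 0.05. Gcnt3 lies at -2.59 and Foxa2 at 1.45.

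Of 16 folding genes, 1 rose and 3 fell (median -0.23), among them the goblet cell stress sensor Ern2 (log2 change -0.52, adjusted p = 0.0404 by edgeR), Creb3l4 (-0.85, adjusted p = 0.00261 by edgeR) and Kdelr3 (-0.83, adjusted p = 0.0245 by edgeR), while Manf rose by 0.56 (adjusted p = 0.0438 by edgeR). Of 12 genes of granule exocytosis, 0 rose and 4 fell (median -0.24), which were Sytl4 (-1.17), Syt7 (-0.86), Sytl2 (-0.56) and Myo5b (-0.45). Of 5 mucins tested, 3 rose and 2 fell. The share called was 25% of the folding genes, 33.3% of the exocytosis genes and 100% of these mucins, against 15.5% of all genes tested. Muc2, the gel-forming mucin, went from 11235 ± 4434 to 2641 ± 1189 CPM (SD, n = 4 and 6; log2 change -2.09, adjusted p = 0.00238 by edgeR), and the membrane mucin Muc13 rose by 1.03 (adjusted p = 0.00269 by edgeR). Muc3 rose by 1.20 and Muc1 by 1.02, with edgeR adjusted p of 0.0109 and 0.0407. Muc3a was the other mucin that fell, with a log2 change of -0.92 (adjusted p = 0.0453 by edgeR). Counts of Muc3 and Muc3a may be split between near-identical copies, and the part of such a split in their opposite changes was not tested.

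Of 15 other goblet cell markers tested, 4 rose and 7 fell (median -0.44). The largest changes among those named were Tff2 (-5.15), which was under 1 CPM in all high libraries and 4.12 to 16 CPM in low ones, and Best2 (2.87), a goblet cell bicarbonate channel. Slc12a8 changed by -1.31 and Ccl9 by -1.52. Of 10 tested genes of the type 2 cytokine axis, 2 rose, Il13ra2 (2.38, at under 1 CPM) and Il22ra1 (0.56), and 0 fell. The share called was 20% of this axis and 73.3% of the other markers, against 15.5% of all genes tested.

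Each of the 10 genes was lower in its highest liver library than in its lowest colorectum library, with tissues normalised separately. Tff3 differed by 5.61-fold, Zg16 by 11.8-fold and Clca1 by 2119-fold between those libraries. No fold is given for Atoh1, whose highest liver value of 0.025 CPM was under 3 counts. Atoh1 and Retnlb were at 0 in 5 of 6 liver libraries, where 3 counts would be 0.0362 to 0.0597 CPM. Tff3, at 5.08 to 15.9 CPM, and Zg16, at 2.09 to 75.1 CPM, were the most abundant. Zg16 was 75.1 and 30.8 CPM in low library 1 and high library 1, which also held 8310 and 3499 CPM of acinar genes, against 2.09 to 4.95 CPM of Zg16 and 31.5 to 57.6 CPM of acinar genes in the other 4, and the part of the acinar genes was not tested.

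Of 6 genes that passed the count filter in the liver, 0 were called by edgeR, where 6.47% of 15522 genes tested were called, 3.15% higher and 3.32% lower. At an unadjusted p under 0.05, 1 of the 6 passed, Fcgbp, against 22.7% of all genes tested, and the DESeq2 Wald test called 0. Tff3 was 13.3 ± 2.36 CPM in low and 8.04 ± 3.63 CPM in high liver libraries (SD, n = 3 and 3; log2 change -0.73, adjusted p = 0.222 by edgeR). Without high library 3, Tff3 changed by -1.14 and Fcgbp by -1.65, with adjusted p of 0.0187 and 0.0201 by edgeR. That library held 50.6 CPM of 10 squamous epithelium genes, against 0.268 to 0.622 CPM in the other liver libraries. It also had the highest liver values of Clca1 (0.7 CPM) and Agr2 (0.474 CPM), and was the only one with any Retnlb or Atoh1. The part of this library's makeup in the liver values was not tested. The difference of the dose effect between tissues was tested in a fit of all 16 libraries, where 8.04% of 18703 genes were called, 4.08% higher and 3.96% lower. Fcgbp was called, with a log2 difference of 1.85 (SE 0.48, adjusted p = 0.0282 by edgeR): its log2 change was 0.88 in colorectum and -0.97 in liver, where it lay at 0.431 to 1.6 CPM. Leaving out liver libraries low 1, low 3, high 1 or high 2 lost the call, with log2 differences of 1.73, 1.92, 1.61 and 1.60 and edgeR adjusted p of 0.0775, 0.0556, 0.0826 and 0.0813.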

How the data were processed

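Total RNA was extracted with Trizol and made into NEBNext Ultra libraries, per the labels' protocols. For each library the authors deposited 1 column of estimated counts and 1 of TPM. The build is GRCm39 per the submitters' processing notes. No aligner or quantification tool is named in the labels or headers. Symbols named 35825 of 36118 IDs (99.2%).

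Estimated counts were rounded to whole numbers. Each tissue was fitted with edgeR 4.0.16 (R 4.3.3; TMM, filterByExpr, robust quasi-likelihood, two-sided) and Benjamini-Hochberg adjustment over all genes, at 0.05. Printed CPM are scaled by TMM factors, as in the fit. That scale was chosen after CPM by total counts had been seen. On total counts, Zg16 overlapped between the colorectum groups, and the liver genes wholly lower were Tff3, Fcgbp and Spink4 in place of Fcgbp, Spink4 and Galnt12, where 19.5% of all liver genes tested were wholly lower on total counts and 14.1% on the TMM scale. Alternatives used limma 3.58.1 on log2(TPM + 1) or log2(TPM + 0.1) and DESeq2 1.42.0. The test recovered planted changes in data simulated from these libraries. The share recovered is not given here, so power for small changes cannot be read from that check.

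The 10 genes and all lists were chosen with earlier results of these data known. The text names up to 4 called genes per list with the smallest adjusted p. Of nearest profiles (genes averaging at least 5 CPM, log2(CPM + 0.5)) it names 3 for Spdef, Atoh1, Galnt12, Fcgbp and Zg16, and the nearest for Retnlb. Genes named after their values were seen are Reg4 and Ang4 in high library 5, and Foxa1, Foxa3, Creb3l1 and Muc3a. Of the 10 listed mucins, Muc4, Muc6 and Muc17 are not analysed here.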

Additional observations from a re-analysis of the deposited data

Results flagged for a closer look

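Of 20 groups of colorectum libraries checked, 4 held a library far from the others, where chance gives about 1 in 20. Clca1 was 8344 CPM in high library 5 against 1484 to 2901 CPM in the other high libraries, and Retnlb was 460 CPM there against 4.8 to 32.2 CPM. Clca1 was 4482 CPM in low library 3 against 2005 to 2187 CPM in the other low libraries. Spdef was 171 CPM in low library 2 against 133 to 138 CPM. The flags depend on the scale: on CPM by total counts, only high library 5 was far from the others, for Clca1 (7962 CPM), Retnlb (439 CPM) and Fcgbp (5501 CPM).

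The dose effect on Fcgbp differed between the tissues, by 1.85 on the log2 scale, in a test of the difference itself. The call was lost when liver low 1, low 3, high 1 or high 2 was left out. In the liver Fcgbp lay at 0.431 to 1.6 CPM, and its own change there was not called (adjusted p = 0.195 by edgeR).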

How the results depend on the processing

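In the colorectum Spdef and Galnt12 were lower and called under every setting run, while the calls of Fcgbp and Zg16 depended on the setting. The genes called higher, 2 of 10, became 3 by the DESeq2 Wald test, which added Tff3, and 1 with no count filter. They were 1 in limma on log2(TPM + 1) and 1 in limma on log2(TPM + 0.1). They were 0 in limma on log2(TPM + 1) with no TPM filter, and 0 without low libraries 3 and 4. Leaving out 1 library gave 0 to 2. The genes called lower, 2, became 4 without low libraries 3 and 4, where Agr2 and Atoh1 were added. They were 3 by the DESeq2 Wald test and in edgeR with DESeq2 size factors, and 2 to 3 leaving out 1. In the liver, leaving out 1 library gave 0 to 2 called lower. For the difference between tissues it gave 0 to 2 higher, against 1, and 0 to 1 lower, against 0; the genes gained were Tff3 and, without liver low 1, Spdef (-2.67). The share test passed 3 genes, 5 without Spink4 and 3 to 5 leaving out 1 library. Without low libraries 3 and 4 it passed 0, where 28 splits allow no p below 0.0357.

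Signs turned for Clca1 in the colorectum (-0.29 to 0.63 leaving out 1 library), in its share (1.03 percentage points without low libraries 3 and 4, -2.7 to 0.622 leaving out 1) and in the tissue difference (-7.56 to 2.78 leaving out 1). They turned for liver Zg16 (-3.29 to 1.57; tissue difference -0.83 to 4.01) and liver Agr2 (-0.19 and -0.14 without low 2 and low 3, up to 2.53; tissue difference -3.16 to 0.31). None of these was called, and the cause was not tested.

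Replicate numbers showed no sign of pairing in the colorectum libraries. Same-numbered deviations there correlated at -0.1 to -0.026, and 0 of 8 libraries matched best with their own number. In the liver same-numbered deviations correlated at 0.068 to 0.47, and 4 of 6 libraries matched best with their own number. Whether the numbers pair the libraries of either tissue was not settled by these values. With the replicate block, 0 of the 10 genes were called higher and 2 lower, Fcgbp changed by 0.58 (adjusted p = 0.228 by edgeR), Clca1 changed by -0.19, and the colorectum held 482 calls and the liver 630. The same block left 4 of 19 mucin O-glycosylation genes called lower and 1 of 18 secretory lineage regulators called higher.

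Over all genes, 2784 colorectum calls became 1711, 1700 and 1431 in the limma fits and 1592 to 3654 leaving out 1 library. In the liver 1004 became 1742 by the DESeq2 Wald test, 1775 and 1770 by limma on TPM, 446 in the fit of all 16 libraries and 387 to 935 leaving out 1. Limma on liver TPM moved the median of all genes by -0.17 and -0.20, and 165 of 1775 calls were higher, against 489 of 1004.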
